A study of Homo sapiens with 24 samples.

Results

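The genes described here are SRF, which encodes serum response factor, and 9 genes for actins and proteins that bind actin or pull on it: ACTB, ACTG1, ACTA2, TAGLN, CNN1, CNN2, MYL9, VCL and TPM1. They were chosen by name, with earlier results of these data known, as 10 of the 61533 genes in the count table. All 10 passed the filter on low counts. Shares of all genes given beside counts of these genes are therefore descriptive and not a test. The assay was 4sU-seq, in which 4-thiouridine enters RNA during transcription and the labelled RNA is pulled out and sequenced. Levels therefore reflect mainly RNA made in the labelling period, and decay within it was not measured. Every library came from U2OS cells, a line from a human osteosarcoma, that stably expressed the glucocorticoid receptor (GR) fused to HaloTag, a tag that binds dyes, from the CMV promoter. The wt line carried unmutated GR, the SoF line carried GR with K492A, which lowers its affinity for RNA and, to a lesser degree, for DNA, and the Ctrl line carried GR with R470A, which lowers its affinity for DNA and was made as the control for SoF. Each line was 1 puromycin-selected and sorted pool, so construct and pool cannot be told apart.

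Each line was treated for 1, 2 or 3 h with dexamethasone, a glucocorticoid drug, at 100 nM, and its 0 h cells had 0.01% ethanol instead. All received 200 µM 4-thiouridine for the final 1 h in serum stripped with charcoal. Line and time made 12 groups of 2 libraries, 24 in all. The medium was replaced when treatment began and the time in ethanol is not stated. Dexamethasone and the time since fresh medium therefore cannot be told apart in any comparison of times, 3 h against 1 h included. No source says that the 2 libraries of a group came from separate cultures, so p-values measure the spread between these libraries, which may be technical.

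SRF is a transcription factor that binds a DNA element called the CArG box, a pair of C, a run of A and T bases and a pair of G. It works with myocardin-related factors (MRTFs), which are held in the cytoplasm by free actin monomers and enter the nucleus when actin polymerises, and with ternary complex factors (the ELK proteins), which are activated by MAP kinase signalling. Serum switches on both arms, and actin and actin-binding genes, SRF itself included, are among the known targets. GR is a nuclear receptor that binds glucocorticoid, enters the nucleus and raises or lowers transcription of its targets.

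Promoter windows, from 250 bases before to 50 bases after a transcription start, were read from RefSeq on build GRCh38.p14 for the 7 genes matched there: SRF, ACTG1, ACTA2, CNN1, CNN2, VCL and TPM1. ACTB, TAGLN and MYL9 had no entry. A CArG box, searched by its name's pattern on both strands (the pattern is its own reverse complement), was present in the windows of 3 of the 7 genes, against 438 of 27305 genes in the whole RefSeq table (1.60%). The 4 sequences that follow are the 250 bases before the start, 5′ to 3′ on the strand of the gene, with CArG boxes in capitals. SRF, ACTG1 and CNN2 are shown because they carry the box, and CNN1, which had no match, because its level fell by more than that of SRF. SRF lies on the plus strand at chr6:43171019-43171268, ACTG1 on the minus strand at chr17:81512800-81513049, CNN2 on the plus strand at chr19:1026358-1026607 and CNN1 on the plus strand at chr19:11538601-11538850.
SRF: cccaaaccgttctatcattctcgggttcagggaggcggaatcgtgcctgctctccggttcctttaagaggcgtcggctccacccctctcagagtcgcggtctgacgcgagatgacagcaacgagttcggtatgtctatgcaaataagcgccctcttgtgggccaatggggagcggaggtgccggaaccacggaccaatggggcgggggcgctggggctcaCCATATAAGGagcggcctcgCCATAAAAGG
ACTG1: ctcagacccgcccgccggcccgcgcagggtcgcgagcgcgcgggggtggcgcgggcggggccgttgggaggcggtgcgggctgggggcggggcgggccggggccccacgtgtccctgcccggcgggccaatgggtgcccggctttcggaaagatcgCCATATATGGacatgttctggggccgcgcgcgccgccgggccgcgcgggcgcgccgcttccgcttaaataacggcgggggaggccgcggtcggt
CNN2: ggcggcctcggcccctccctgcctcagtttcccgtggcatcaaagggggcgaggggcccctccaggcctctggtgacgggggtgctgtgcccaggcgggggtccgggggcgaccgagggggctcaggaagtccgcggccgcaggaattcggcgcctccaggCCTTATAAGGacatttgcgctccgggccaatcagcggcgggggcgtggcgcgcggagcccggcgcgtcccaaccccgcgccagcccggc
CNN1: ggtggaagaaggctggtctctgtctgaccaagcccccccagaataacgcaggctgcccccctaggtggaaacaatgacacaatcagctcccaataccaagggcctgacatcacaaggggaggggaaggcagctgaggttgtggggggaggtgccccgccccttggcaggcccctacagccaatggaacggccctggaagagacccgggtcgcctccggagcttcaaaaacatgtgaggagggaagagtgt

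SRF carried a pair of boxes, CCATATAAGG from 30 to 21 bases and CCATAAAAGG from 10 to 1 bases before its start. ACTG1 carried CCATATATGG from 94 to 85 bases before the start, and CNN2 carried CCTTATAAGG from 89 to 80 bases before it. No window of ACTA2, CNN1, VCL or TPM1 held one, which says only that these letters are not in these windows. A pattern of the glucocorticoid response element was searched on both strands: the half-site GNACA, 3 bases of any kind and the half-site TGTNC. It was in 0 of the 7 genes and in 131 of 27305 genes of the table (0.480%). With so low a share, 0 of 7 is not informative. The paper states that GR prefers enhancers far from the start, which these windows do not cover. A match is a description of the sequence and not a bound site.

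Total counts per library ran from 8106036 to 15820806. Levels are given as CPM, read counts scaled to a common library total with TMM factors, which is a relative measure, and in bulk samples fewer cells of a type and less RNA per cell cannot be told apart. The label of the cell line was set against marker genes. The bone markers COL1A1, SPARC, RUNX2 and ALPL had mean levels of 23.3 to 561 CPM, while COL1A2 was at 0.257 CPM. CD3E (0.00757 CPM) and PECAM1 (0.173 CPM), of T cells and endothelium, were near 0, and so were the smooth muscle genes MYH11 (0.428 CPM) and DES (0.636 CPM). Of the other markers, PTPRC (0.939 CPM), MYOCD (1.22 CPM), EPCAM (2.01 CPM), VWF (3.20 CPM) and CDH1 (4.22 CPM) were low, and the keratin gene KRT8 was at 174 CPM. Known GR targets rose in the mean of the lines: FKBP5, which encodes a chaperone that restrains GR, by 3.06 on the log2 scale at 3 h, TSC22D3 by 1.49 and PER1 by 1.09. The receptor gene NR3C1, whose counts do not separate the introduced from the native copy, stood 1.07 above 0 h on the log2 scale at 1 h, -0.40 at 2 h and -1.06 at 3 h. With time ignored it was higher in SoF than in wt by 1.89 and in Ctrl than in wt by 2.18, both called, and stood at -0.30 for SoF minus Ctrl, which was not called. These are RNA levels, and the paper matched the lines for GR protein in the nucleus. Counts per gene cannot show the K492A or R470A substitution.

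Per base of exon, the 2 cytoplasmic actins were far above the rest. ACTB had a mean of 932 ± 220 RPKM (SD, n = 24 libraries; CPM per kilobase of merged exons in GENCODE release 44) and ACTG1 485 ± 118 RPKM. SRF (52.4 ± 30.2 RPKM), TPM1 (51.8 ± 19.1), TAGLN (51.0 ± 39.6), MYL9 (45.2 ± 20.2) and CNN2 (38.1 ± 11.5) followed with overlapping spreads. VCL was at 28.8 ± 10.8 RPKM, CNN1 at 11.7 ± 8.05 RPKM and ACTA2 at 0.273 ± 0.160 RPKM. The neighbours in this order that did not overlap within 1 SD were ACTB and ACTG1, ACTG1 and SRF, and CNN1 and ACTA2. With only 4 to 38 reads in a library, ACTA2 was near the limit of detection, and its levels carry wide counting error.

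**Figure D1:**
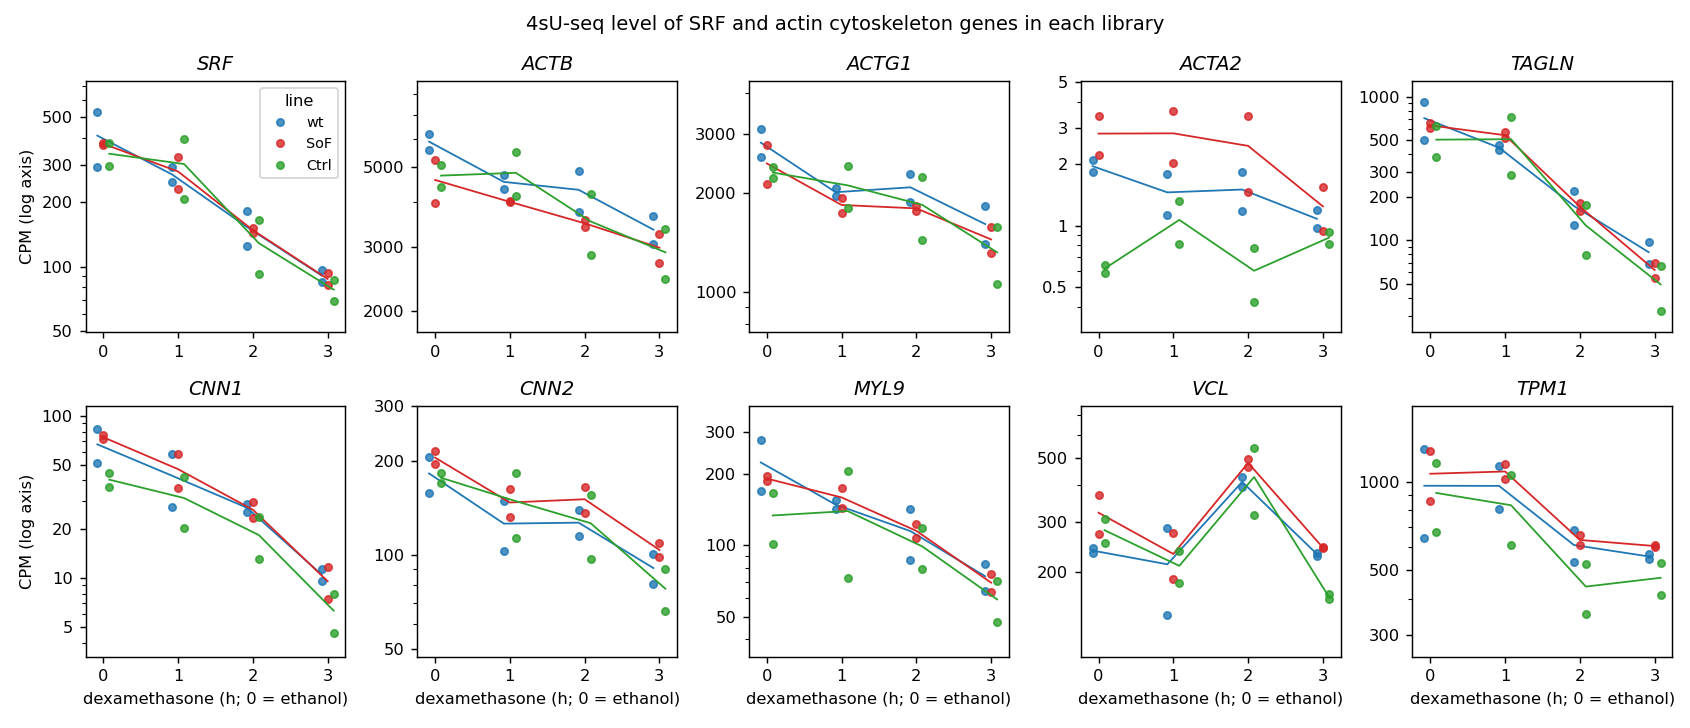
CPM on a log axis of the 10 genes in each of the 24 libraries against hours of dexamethasone, with points for libraries, lines through the mean of each group of 2, and colours for the wt, SoF and Ctrl lines. SRF, TAGLN and CNN1 had every 2 h and 3 h library below every 0 h library, VCL was highest at 2 h, and in ACTA2 7 of the 8 SoF libraries lay above every Ctrl library.

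Each time was then compared with 0 h in each line and in the mean of the lines. The question was when and how far the labelled RNA of these genes moved. Calls rest on edgeR's quasi-likelihood test, with an adjusted p (Benjamini-Hochberg over all 23651 genes tested) below 0.05. Most of the genes fell, with the first calls at 2 h and the largest changes in TAGLN, CNN1 and SRF. In the mean of the lines, 0 of the 10 genes were called at 1 h (background 1.28% of all genes tested), 9 at 2 h (28.8%) and 9 at 3 h (40.3%). At 2 h 8 of the 9 fell (background 12.6%) and VCL rose (16.2%), and at 3 h all 9 fell, where 19.3% of all genes fell and 20.9% rose. Their median change over all 10 was -0.32, -0.60 and -0.96 on the log2 scale at 1, 2 and 3 h, beside -0.035 over all genes at 3 h. At 2 h the 6 libraries all lay below the 6 at 0 h for SRF, TAGLN and CNN1, where 2.95% of all genes did so, and at 3 h for 8 genes, all but ACTA2 and VCL (6.76%). At 1 h, SRF, ACTG1, CNN1, CNN2 and VCL were below 0 h at an unadjusted p under 0.05, and DESeq2 called 0 of the 10 genes. Here and below, counts at an unadjusted p and counts in DESeq2 have no share of all genes beside them. They are not read as results about these genes. From 1 h to 3 h, 8 of the 10 fell, all but ACTA2 and VCL, where 50.6% of all genes tested were called and 25.6% fell.

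**Figure D2:**
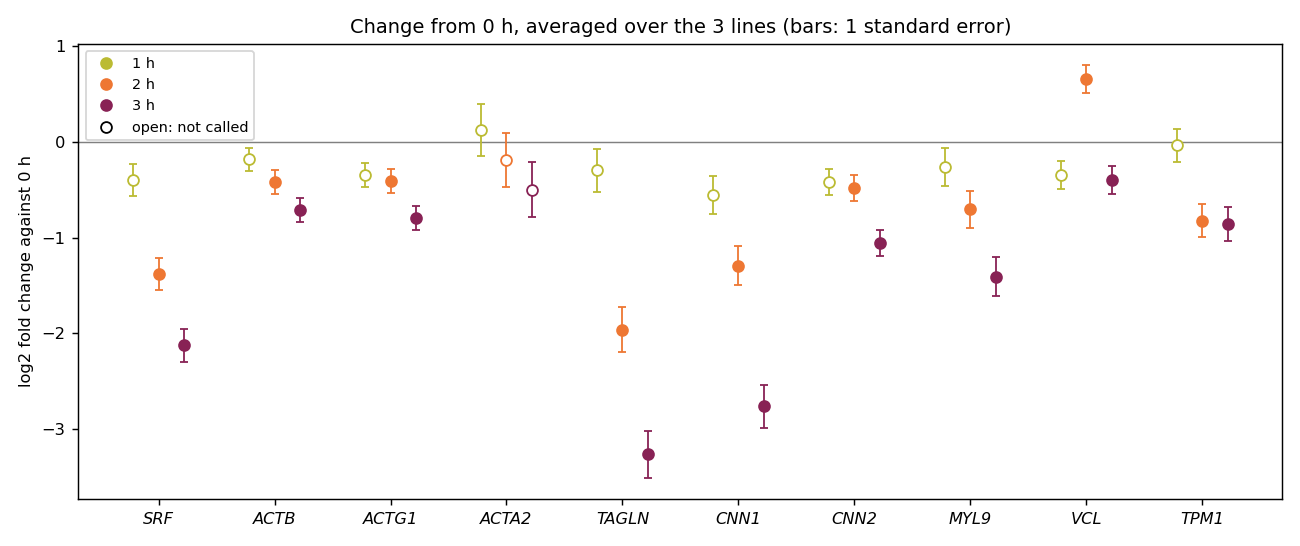
Log2 fold change against 0 h of the 10 genes at 1, 2 and 3 h in the mean of the 3 lines, with bars of 1 standard error, and filled points for genes called at an adjusted p under 0.05. No gene was called at 1 h; at 3 h the changes ran from -3.27 for TAGLN to -0.40 for VCL.

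SRF fell in every line. At 0 h its level was 293 and 526.4 CPM in wt, 370 and 380 CPM in SoF, and 294 and 380 CPM in Ctrl. At 1 h it was 248 and 292 CPM in wt, 232 and 325 CPM in SoF, and 208 and 395 CPM in Ctrl. At 2 h it was 182 and 125 CPM in wt, 144 and 152 CPM in SoF, and 92.3 and 165 CPM in Ctrl. The 1 h libraries overlapped those at 0 h, and all 6 libraries at 2 h lay below all 6 at 0 h. After 3 h the level was 85.0 and 96.8 CPM in wt, 81.7 and 93.6 CPM in SoF, and 69.2 and 87.1 CPM in Ctrl. Only the lower Ctrl library at 2 h reached into the range of the 3 h libraries. The log2 fold change in the mean of the lines was -1.38 ± 0.17 (SE) at 2 h (adjusted p = 2.71e-06) and -2.13 ± 0.17 at 3 h (adjusted p = 3.86e-09), which left 22.9% of the 0 h level. Taken line by line, the 3 h value of wt was -2.17 ± 0.30, that of SoF -2.10 ± 0.30 and that of Ctrl -2.11 ± 0.30.

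The cytoplasmic actins, ACTB and ACTG1, form the filaments of all non-muscle cells, and both were first called at 2 h. In the mean of the lines ACTB was at -0.18 ± 0.12 and ACTG1 at -0.35 ± 0.13 at 1 h, neither called. At 3 h they were at 61.0% and 57.7% of the 0 h level. ACTB spanned 3992 to 6192 CPM at 0 h (median 5154, n = 6), 3993 to 5503 CPM at 1 h (median 4257), 2853 to 4896 CPM at 2 h (median 3673) and 2444 to 3660 CPM at 3 h (median 3161). ACTG1 spanned 2121 to 3105 CPM at 0 h (median 2471), 1740 to 2411 CPM at 1 h (median 1939), 1437 to 2277 CPM at 2 h (median 1848) and 1059 to 1817 CPM at 3 h (median 1482). For both genes the 3 h range ended below the 0 h range, while the 1 h and 2 h ranges overlapped it. The change in the mean of the lines was -0.42 ± 0.12 at 2 h (adjusted p = 0.0122) and -0.71 ± 0.12 at 3 h (adjusted p = 7.48e-05) for ACTB. For ACTG1 it was -0.41 ± 0.13 at 2 h (adjusted p = 0.0194) and -0.79 ± 0.13 at 3 h (adjusted p = 3.74e-05), and both genes were called in each line at 3 h. At 2 h the calls were near the threshold: that of ACTG1 was lost without wt 0 h replicate 2, wt 2 h replicate 2, SoF 0 h replicate 1 or Ctrl 2 h replicate 1 (log2 -0.31 to -0.38), and that of ACTB without Ctrl 2 h replicate 1 (-0.33, adjusted p = 0.0546).

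ACTA2, the smooth muscle actin, was not called at any time in any line. It was at 1.82 and 2.08 CPM in wt at 0 h, 2.21 and 3.41 CPM in SoF and 0.643 and 0.589 CPM in Ctrl. At 3 h it was at 0.969 and 1.19 CPM in wt, 1.53 and 0.946 CPM in SoF and 0.933 and 0.810 CPM in Ctrl. The 3 h libraries were lower than those at 0 h in wt and SoF and higher in Ctrl. The change in the mean of the lines was -0.50 ± 0.29 (adjusted p = 0.172). In SoF it was -1.15 ± 0.44 (adjusted p = 0.0680), and it was called there without 0 h replicate 1 (-1.44, adjusted p = 0.0428). ACTA2 shares 1638 of its 5628 exon bases (29.1%) with the antisense gene ACTA2-AS1, which had a mean of 2.35 CPM, and 387 with FAS, at 18.8 CPM, so its reads are uncertain if strand was not used in counting. It also shares 401 exon bases with ENSG00000286116 on the same strand, at 1.72 CPM, and reads there are uncertain with strand too.

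TAGLN encodes transgelin, an actin cross-linking protein used as an early marker of smooth muscle, and it fell the most of the 10. At 0 h it was at 500 and 921 CPM in wt, 609 and 657 CPM in SoF, and 382 and 625.2 CPM in Ctrl. At 2 h it was at 220 and 128 CPM in wt, 161 and 182 CPM in SoF, and 78.9 and 175 CPM in Ctrl. At 3 h it was at 68.6 and 97.0 CPM in wt, 54.9 and 69.7 CPM in SoF, and 32.2 and 66.6 CPM in Ctrl. Every 2 h library was below every 0 h library, and the highest at 3 h was far under the lowest at 0 h. The 1 h libraries, 285 to 730 CPM, overlapped those at 0 h. The change in the mean of the lines was -1.96 ± 0.23 at 2 h (adjusted p = 2.01e-06) and -3.27 ± 0.25 at 3 h (adjusted p = 1.60e-09), a 9.61-fold fall that left 10.4%. The wt line changed by -3.10 ± 0.43 at 3 h, SoF by -3.35 ± 0.43 and Ctrl by -3.35 ± 0.43. TAGLN shares 2498 of its 6550 exon bases with ENSG00000280143 on the same strand, so reads cannot be assigned to one alone, and this gene moved in parallel (-3.97 at 3 h); it also shares 2233 bases with PCSK7 on the opposite strand, which stood at -0.07.

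The calponins bind actin and slow myosin, CNN1 mostly in smooth muscle and CNN2 more widely. CNN1 was at 50.9 and 82.5 CPM in wt at 0 h, 71.9 and 75.7 CPM in SoF and 36.2 and 44.6 CPM in Ctrl. After 3 h it stood at 9.61 and 11.4 CPM in wt, 7.43 and 11.7 CPM in SoF and 4.58 and 8.01 CPM in Ctrl. All 6 libraries at 2 h (13.2 to 29.4 CPM, median 24.6) and all 6 at 3 h lay below all 6 at 0 h. Its change was -1.30 ± 0.20 at 2 h (adjusted p = 5.44e-05) and -2.76 ± 0.22 at 3 h (adjusted p = 3.16e-09). CNN2 spanned 159 to 215 CPM at 0 h (median 189), 103 to 184 CPM at 1 h (median 141), 97.0 to 165 CPM at 2 h (median 138) and 66.1 to 109 CPM at 3 h (median 94.2). Its 3 h range lay wholly below its 0 h range, and its 2 h range overlapped it. Its change was -0.48 ± 0.14 at 2 h (adjusted p = 0.0104) and -1.06 ± 0.14 at 3 h (adjusted p = 2.65e-06).

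MYL9 encodes a regulatory light chain of myosin II, whose phosphorylation starts contraction. It spanned 101 to 277 CPM at 0 h (median 178), 72.4 to 206 CPM at 1 h (median 149), 79.1 to 142 CPM at 2 h (median 113) and 47.3 to 83.5 CPM at 3 h (median 67.5). The 3 h libraries were all below the 0 h libraries, and the 2 h libraries overlapped them. Its change was -0.71 ± 0.20 at 2 h (adjusted p = 0.00974) and -1.41 ± 0.20 at 3 h (adjusted p = 8.71e-06).

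TPM1 encodes a tropomyosin, which lies along the actin filament and sets which proteins can bind it. Its 1 h libraries (607 to 1146 CPM, median 1037) overlapped those at 0 h (641 to 1294 CPM, median 1008), and it then dropped in 1 step to 355 to 685 CPM at 2 h (median 570) and 411 to 609 CPM at 3 h (median 556). The change was -0.04 ± 0.17 at 1 h, -0.82 ± 0.17 at 2 h (adjusted p = 0.00115) and -0.86 ± 0.17 at 3 h (adjusted p = 0.000470). By line only Ctrl was called at 3 h (-0.96 ± 0.30, adjusted p = 0.0368), with -0.80 ± 0.30 in wt and -0.82 ± 0.30 in SoF, and the lines were not called different. The call in Ctrl was lost in DESeq2 (adjusted p = 0.0574) and without 0 h replicate 2 or either 3 h replicate (-0.52 to -1.15), and calls were made in wt (-1.23) and SoF (-1.06) without 0 h replicate 1, and in both with no filter on low counts (-0.81 and -0.79). At 0 h replicate 2 exceeded replicate 1 by 0.56 to 1.01 on the log2 scale in every line, and without replicate 2 of the 3 lines the change was -0.38 at 2 h (adjusted p = 0.106) and -0.40 at 3 h (adjusted p = 0.0533). SRF, TAGLN, CNN1 and MYL9 also stood higher in replicate 2 at 0 h in all 3 lines. Without those 3 libraries the 2 h changes of CNN2 (-0.42, adjusted p = 0.0864) and MYL9 (-0.44, adjusted p = 0.199) lost their calls too, and the calls of the other genes but VCL at 3 h did not change. TPM1 shares 2645 of its 14700 exon bases with TPM1-AS on the opposite strand, at a mean of 1.89 CPM.

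VCL, which encodes vinculin, a protein that links actin to integrin and cadherin adhesions, had a course of its own. It was at 243 and 233 CPM in wt at 0 h, 272 and 372 CPM in SoF and 253 and 307 CPM in Ctrl. At 1 h it was at 143 and 284 CPM in wt, 190 and 273 CPM in SoF and 237 and 184 CPM in Ctrl. At 2 h it was at 427 and 396 CPM in wt, 462 and 496 CPM in SoF and 316 and 540 CPM in Ctrl. Of the 6 libraries at 2 h, 5 lay above every 0 h library, and the lower Ctrl library was below 1 of them, SoF replicate 2. After 3 h it stood at 234 and 228 CPM in wt, 243 and 244 CPM in SoF and 161 and 168 CPM in Ctrl. The 3 h levels of wt and SoF overlapped the range at 0 h, and those of Ctrl were below it. In the mean of the lines the change was -0.35 ± 0.15 at 1 h (adjusted p = 0.285), 0.66 ± 0.15 at 2 h (adjusted p = 0.00167) and -0.40 ± 0.15 at 3 h (adjusted p = 0.0312). The fall at 3 h was called by line in Ctrl alone (-0.77 ± 0.25, adjusted p = 0.0459), and its call in the mean of the lines was lost when any of 10 of the 12 libraries involved was left out (log2 -0.32 to -0.41), that is any but SoF 0 h replicate 1 and Ctrl 0 h replicate 1. VCL shares 1109 of its 9992 exon bases with AP3M1 on the opposite strand, which stood at 0.01 at 2 h.

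Over the 24 libraries, log2 CPM of TAGLN (Pearson's r = 0.985), CNN1 (0.944), MYL9 (0.917), CNN2 (0.878), ACTB (0.870), ACTG1 (0.860) and TPM1 (0.836) followed that of SRF, and that of VCL did not (0.038). Among the 11406 genes with a mean of at least 10 CPM the median r was -0.157. The libraries share the time course, so r describes mainly the order of the times. The 5 genes most like SRF were TAGLN, ENSG00000280143 (0.979), TUFT1 (0.973), GBP1 (0.960) and GLIPR1 (0.960). In the mean of the lines their log2 changes at 3 h were -2.30 for TUFT1, which encodes tuftelin, -3.53 for GBP1, an interferon-induced GTPase, and -3.13 for GLIPR1.

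The question of the 3 constructs was whether GR with lowered affinity for RNA or DNA changed these responses. By line, 3 of the 10 genes were called at 2 h in wt (background 4.60%, 1.22% falling), SoF (5.68%, 1.48% falling) and Ctrl (7.95%, 2.38% falling), all falling: SRF and TAGLN in each, with CNN1 in wt and SoF and TPM1 in Ctrl. At 3 h, 7 fell in wt (background 10.7%, 4.12% falling), 7 in SoF (19.3%, 8.11% falling) and 9 in Ctrl (14.2%, 5.6% falling), the 7 being SRF, ACTB, ACTG1, TAGLN, CNN1, CNN2 and MYL9, to which Ctrl added VCL and TPM1. At 1 h 0 were called in wt (0.156%), SoF (0.165%) and Ctrl (0.0465%), with 3, 0 and 0 at an unadjusted p under 0.05 and 0 in DESeq2. These line counts rested on 2 libraries a group. Calls were lost in every line when single libraries were left out. Such a fit leaves a lone library in a group, and the number of calls over all genes moved too. These losses therefore do not describe the 10 genes alone. With 1 library left out, the 3 h change of SRF ran from -2.55 to -1.67 in wt, from -2.20 to -2.01 in SoF and from -2.28 to -1.92 in Ctrl. That of ACTB ran from -0.94 to -0.68 in wt, from -0.805 to -0.41 in SoF and from -0.95 to -0.49 in Ctrl.

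The difference in the 3 h response itself, tested as an interaction, was called in 0 of the 10 genes for SoF minus Ctrl (background 0.0127%), SoF minus wt (0%) and Ctrl minus wt (0%) in edgeR's quasi-likelihood test, and in 0 in DESeq2. At an unadjusted p under 0.05 the counts were 1, 0 and 0, the 1 being ACTA2 (-1.63 ± 0.73). For the other 9 genes the differences ran from -0.29 to 0.37 for SoF minus Ctrl, from -0.36 to 0.19 for SoF minus wt and from -0.73 to 0.42 for Ctrl minus wt, with standard errors of 0.30 to 0.56. For SRF they were 0.01 ± 0.41, 0.07 ± 0.41 and 0.06 ± 0.41. The missing calls do not show that the lines responded alike.

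**Figure D3:**
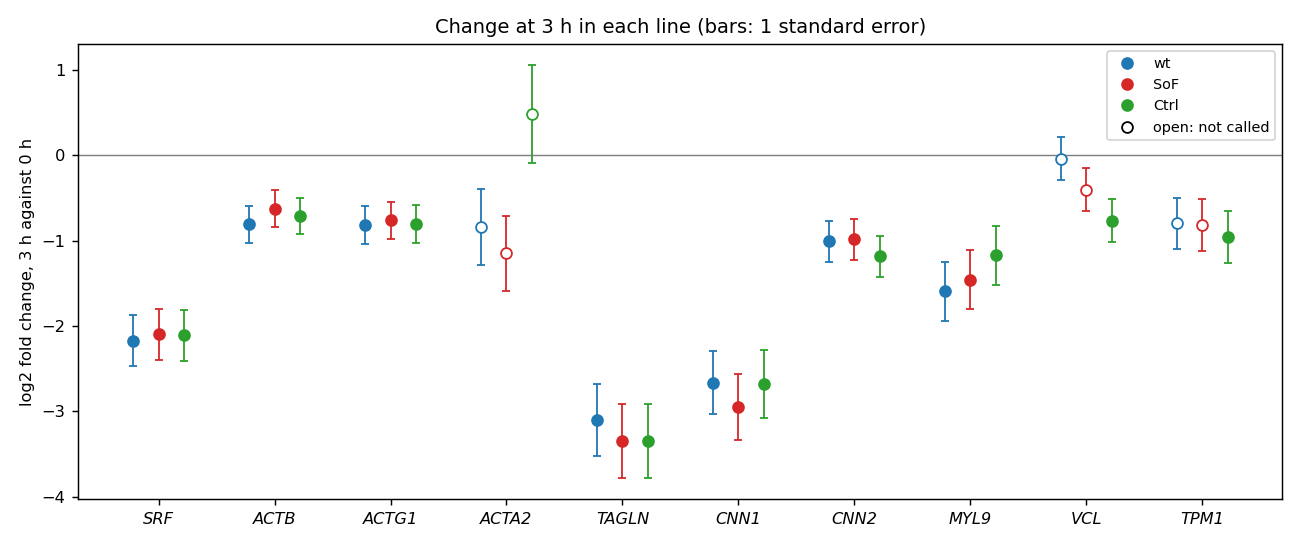
Log2 fold change at 3 h against 0 h of the 10 genes in the wt, SoF and Ctrl lines, with bars of 1 standard error and filled points for called genes. The values of the 3 lines lay within their errors of each other for SRF (-2.10 to -2.17), and were furthest apart for ACTA2.

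The lines were also compared with treatment time ignored, 8 libraries each. Between them the RNA of the receptor gene also differed (1.89 and 2.18 above wt on the log2 scale in SoF and Ctrl). The paper picked sorted fractions of each line by immunofluorescence, so that GR protein in the nucleus matched after dexamethasone. The part of the receptor RNA in the differences was not tested. None of the 10 genes was called for SoF minus wt (background 8.02%) or Ctrl minus wt (4.77%) in edgeR's quasi-likelihood test, with 1 gene, ACTA2, at an unadjusted p under 0.05 in each, and DESeq2 called 0 and 1. For SoF minus Ctrl 1 was called (3.61%, 2.16% higher in SoF), again ACTA2. It spanned 0.969 to 2.08 CPM in wt (median 1.48, n = 8), 0.946 to 3.62 CPM in SoF (median 2.11) and 0.422 to 1.31 CPM in Ctrl (median 0.797). Of the 8 SoF libraries 7 lay above every Ctrl library, and the wt libraries overlapped both. The log2 difference between SoF and Ctrl was 1.54 ± 0.27 (adjusted p = 0.000830), and it was called with any 1 library left out. In the 0 h libraries alone it was 2.16 and not called (adjusted p = 0.440). That fit had 2 libraries a line, and ACTA2 had 4 to 38 reads a library. Among the alternatives other than leaving out 1 library, calls over all genes fell to as few as 9, beside 763 in the main fit. The missing call is therefore not informative. For SRF the line differences were -0.05 ± 0.42 for SoF minus wt, -0.13 ± 0.42 for Ctrl minus wt and 0.08 ± 0.42 for SoF minus Ctrl, errors that include the spread over time. CNN1 was lowest in Ctrl (-0.61 ± 0.50 against wt), which was not called unless time was a term of the fit (adjusted p = 0.0114).

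**Figure D4:**
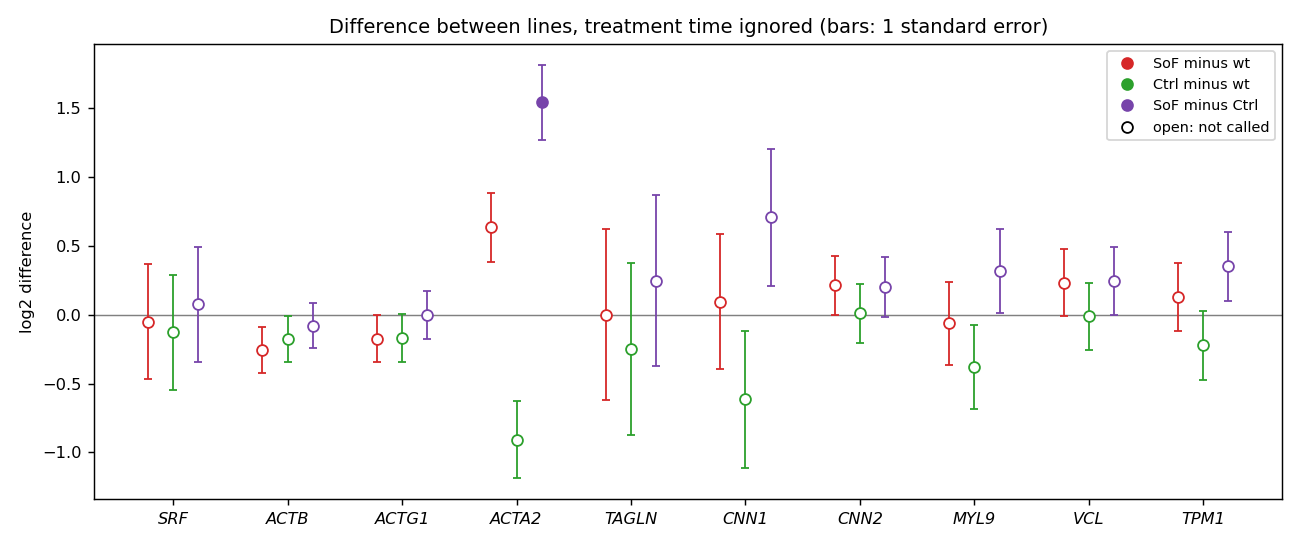
Log2 difference between lines, treatment time ignored, for the 10 genes, with bars of 1 standard error and filled points for called genes. ACTA2 in SoF minus Ctrl (1.54) is the one filled point.

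The rest of the SRF pathway was read from lists of its cofactors and targets, with smooth muscle genes and paralogues of the 10 genes, at 3 h in the mean of the lines, where 20.9% of all genes tested rose and 19.3% fell. Of the 6 cofactors, 1 rose, 2 fell and 3 were not called. ELK3, a ternary complex factor, rose by 1.25 ± 0.10, ELK4 changed by -0.27 ± 0.10, and MYOCD, near the limit at 1.22 CPM, by -1.07 ± 0.32. The MRTFs themselves were not called at 3 h, MRTFA at 0.19 ± 0.09 (adjusted p = 0.114) and MRTFB at 0.04 ± 0.08 (adjusted p = 0.703). At 2 h, MRTFB fell (-0.45 ± 0.08, adjusted p = 0.000208), ELK1 (0.44 ± 0.11, adjusted p = 0.00337) and ELK3 (1.24 ± 0.10) rose, and the other 3 were not called.

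The immediate-early genes of the serum response moved the furthest: 9 of 10 fell and 1, PHLDA1, rose (0.29 ± 0.11), with a median of -2.08 beside -0.035 over all genes. EGR1, the most abundant of them, went from 4735 ± 951 CPM at 0 h (SD, n = 6) to 179 ± 38.3 CPM at 3 h, a change of -4.75 ± 0.19. EGR2 changed by -5.42 ± 0.28, FOSB by -3.99 ± 0.23 and FOS by -3.37 ± 0.19. These encode short-lived transcription factors. At 1 h 1 of the 10 was called, JUNB (-0.70), beside 1.28% of all genes, and at 2 h 8 fell, beside 12.6%.

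Of 23 other cytoskeletal SRF targets, 8 fell, 1 rose and 14 were not called at 3 h, with a median of -0.23. LIMA1, an actin-bundling protein, fell from 395 ± 32.7 to 78.3 ± 17.5 CPM (-2.35 ± 0.14). The matricellular genes CCN2 (-1.66 ± 0.16) and CCN1 (-1.65 ± 0.11) and WDR1, which speeds filament disassembly (-1.32 ± 0.10), fell too, and the filamin gene FLNC rose (0.43 ± 0.15). At 2 h, 6 of the 23 rose and 5 fell, where 16.2% of all genes tested rose and 12.6% fell. Those that rose at 2 h, as VCL did, were ACTN1, ACTN4, FLNC, PDLIM5, ITGA5 and CALD1. Of these PDLIM5 was at 1.03 at 2 h and -0.28 at 3 h, CALD1 at 0.72 and -0.34, and ACTN1 at 0.37 and -0.23. FLNC was at 0.84 and 0.43, ITGA5 at 0.43 and 0.28, and ACTN4 at 0.35 and 0.25. Only FLNC was called at 3 h.

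Among 6 tested of 8 smooth muscle contractile genes, 4 fell (ACTG2 at -2.70 ± 0.46, LMOD1, SYNPO2 and the light chain kinase gene MYLK at -0.68 ± 0.13), DES rose (1.62 ± 0.40, from 0.241 CPM) and SMTN was not called. All but MYLK and SMTN had means under 3 CPM. Among paralogues of the 10 genes, 7 of 12 tested fell, 1 rose and 4 were not called. The heart actin gene ACTC1 changed by -3.06 ± 0.35 from 3.41 CPM, the tropomyosin gene TPM4 by -1.23 ± 0.13 and MYL12A by -0.83 ± 0.10, while TPM2 (-0.09), TPM3 (-0.03) and TAGLN2 (-0.04) were not called. CTNNA1, a relative of vinculin, rose by 0.30 ± 0.09. Reads from near-identical actin coding exons can be split between ACTB, ACTG1 and the other actin genes, and the low actins are uncertain for this reason.

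**Figure D5:**
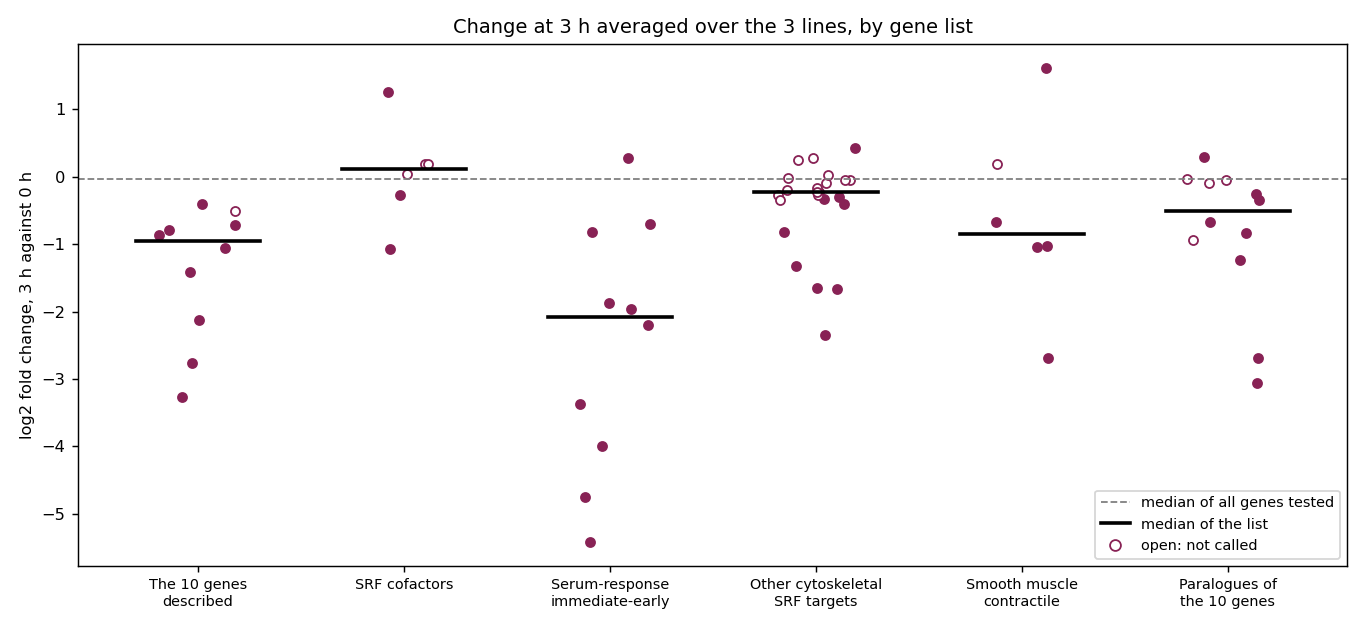
Log2 fold change at 3 h against 0 h in the mean of the lines for the 10 genes and for the lists of the SRF pathway, 1 point a gene, filled where called, with the median of each list as a bar and that of all genes (-0.035) as a dashed line. The immediate-early genes reached -5.42, and of the cofactors ELK3 stood at 1.25.

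CArG boxes were found in the promoter windows of 2 of 8 immediate-early genes with an entry, 5 of 22 other cytoskeletal targets (22.7%), 3 of 6 smooth muscle contractile genes, 4 of 13 paralogues (30.8%) and 0 of 5 cofactors. Of all genes in the RefSeq table, 1.60% had one. The target lists were chosen as SRF targets, so these shares are descriptive. ACTG2 and TAGLN2 each stood in 2 of the lists.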

How the data were processed

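The authors extracted unique molecular identifiers with UMI-tools 1.1.2, trimmed reads with Trim Galore 0.6.6, aligned them to hg38 with STAR 2.7.3a, removed duplicate molecules and counted reads over exons with featureCounts (Rsubread 2.0.1) on GENCODE release 39. The deposited table holds raw counts per gene and library, and strand use is stated only in its title. Biotinylation and pulldown were done in replicate pairs, so pulldown and group cannot be told apart. Between the 2 libraries of a group the squared spread of counts was 5.47 to 19.7 times that of counting error (chi-square per degree of freedom). Taken over all genes, spread between libraries thus exceeded counting error; ACTA2, with 4 to 38 reads a library, was not examined separately.

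Identifiers were matched to GENCODE release 44 (61415 of 61533, 99.8%). A fit over 12 groups and a fit on line alone (21122 genes) were made in edgeR 4.0.16 with TMM scaling, after filterByExpr had removed low genes (its count minimum 10, its minimum over all libraries 15), by quasi-likelihood F tests adjusted after Benjamini and Hochberg. DESeq2 1.42.0, the tool the authors used, was an alternative, as were DESeq2 size factors, no filter, a replicate block, the libraries of a line alone, an additive time term, the 0 h libraries alone and leaving out libraries. Scripts were tested on simulated data. Levels are CPM, and log2 CPM for correlations had a prior count of 2. From each list the genes called at 3 h were named, up to 4 in each direction by smallest p, and genes beyond that rule were named after their values were seen. The 10 genes and the lists were chosen with earlier results of these data known. One list of regulators and 1 marker gene are not reported here.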

Additional observations from a re-analysis of the deposited data

Results flagged for a closer look

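In the 8 wt libraries, SRF in wt 0 h replicate 2 (526.4 CPM) stood apart from the next highest, 293 CPM, with a gap of 0.529 of the whole range. Without that library the 3 h change of SRF in the mean of the lines was -1.95 on the log2 scale, beside -2.13 with it, and it was still called. In the 8 Ctrl libraries, VCL in Ctrl 2 h replicate 2 (540 CPM) stood apart from the next highest, 316 CPM, with a gap of 0.592 of the range. Without it the 2 h change of VCL in the mean of the lines was 0.50, beside 0.66 with it, and it was still called. The 8 libraries of a line span the 4 times, and 30 such sets of a gene and a line were examined, where chance flags about 1 in 20.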

How the results depend on the processing

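Over the alternatives, 2770 values of the 10 genes were recomputed. Of these 2642 kept their side of the threshold with no reversed call, 74 lost a call, 54 gained one and 0 reversed. Most of the 2770 values belong to comparisons with 0 or 1 of the 10 genes called, which had few calls to lose. Of 97 counts of called genes, leaving out single libraries aside, 83 stayed within 1.5 times. With no filter on low counts, the number of the 10 genes called was 4 at 1 h and 9 at 2 h in wt, 1 at 1 h and 6 at 2 h in SoF, 6 at 2 h in Ctrl and 6 at 1 h in the mean of the lines. Over all genes called, of 48707 with at least 1 count, the same fits gave 516, 1706, 245, 1882, 2371 and 1035. With the libraries of SoF alone 5 were called at 2 h. With time as a term, 1 was called for SoF minus wt, 2 for Ctrl minus wt and 2 for SoF minus Ctrl, ACTA2 and CNN1. Over all genes, calls in these comparisons were 1693, 1007 and 763 in the main fit. They reached 6134, 3965 and 2814 in the alternatives other than leaving out 1 library. The added calls are therefore not read as a result about the 10 genes. DESeq2 called 1 for Ctrl minus wt, and with 0 h libraries alone 0 were called for SoF minus Ctrl. The cause of these shifts was not tested.

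The replicate number did not pair the libraries throughout: the correlation of their deviations between groups ran from -0.221 to 0.568, 39 of 66 above 0. The 3 pairs of 0 h groups, however, had 0.394 to 0.568, so 0 h libraries of a number deviated together. With a replicate block the count of called genes was 1 at 1 h in the mean of the lines (CNN1), 1 for Ctrl minus wt (ACTA2) and 9 at 3 h in SoF, with TPM1 (-0.77, adjusted p = 0.00835) and ACTA2 (-1.12, adjusted p = 0.0378) added, and it stayed within 1.5 times elsewhere. TPM1 was also called at 3 h in wt (-0.73, adjusted p = 0.0190) and at 2 h in SoF, VCL at 2 h in wt, CNN1 at 2 h in Ctrl and ACTA2 at 3 h against 1 h, and no call was lost.

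With 1 library left out, which leaves a lone library assumed to vary like the other groups, the count was 0 at 1 h in wt, SoF and Ctrl and 0 to 1 in the mean of the lines. At 2 h it was 0 to 4 in wt, 0 to 3 in SoF, 0 to 4 in Ctrl and 6 to 9 in the mean of the lines. At 3 h it was 3 to 8 in wt, 3 to 7 in SoF, 3 to 7 in Ctrl and 7 to 9 in the mean of the lines, the lowest values of the mean being those without 0 h replicate 2 of all 3 lines. At 3 h against 1 h, where 8 fell, it was 8 to 9. It was 0 for the differences in response, 0 to 1 for SoF minus wt and Ctrl minus wt, and 1 for SoF minus Ctrl. Many single libraries changed the 2 h and 3 h counts by line. The 1 h count in the mean of the lines changed without wt 1 h replicate 2 (VCL, -0.54). The Ctrl minus wt count changed without SoF 3 h replicate 2 or Ctrl 1 h replicate 2 (ACTA2, -0.91 and -1.04). SoF 3 h replicate 2 also decided ACTA2 in SoF minus wt (0.75).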
